A study of Homo sapiens with 6 samples.

Results

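Of the 59873 clusters of IGF2BP3-crosslinked RNA called in the RNase T1 1/1 library, 304 were found again with the lower RNase T1 concentration and had no counterpart with RNase I. A cluster here is a short stretch of the genome where sequenced fragments with T-to-C changes pile up. The 304 were selected on cluster positions alone: each shared at least 1 nt, on the same strand, with a cluster of the RNase T1 0.25/0.25 library and none with a cluster of any of the 3 IGF2BP3 RNase I libraries. They made up 0.508% of the RNase T1 1/1 clusters (Wilson 95% interval 0.454 to 0.568%) and 2.57% (2.30 to 2.87%) of the 11851 RNase T1 1/1 clusters that were reproducible, meaning found at both RNase T1 concentrations. The 11547 reproducible clusters that did overlap RNase I are called the shared clusters below, and the 14750 clusters without RNase I that were called in RNase T1 1/1 alone are called the RNase T1 1/1-only clusters.

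IGF2BP3, a cytoplasmic RNA-binding protein, was immunoprecipitated from HCT116 Tet-OsTIR1 cells, a human colorectal carcinoma line that carries the plant F-box protein OsTIR1 under a tetracycline-controlled promoter, after 15 h with 100 µM 4-thiouridine and UV light of 365 nm. RNA was trimmed in the lysate and again on the beads, at the U/µL in each library name: RNase I at 0.05/0.05, 0.1/0.025 or 0.05/0.025 and RNase T1 at 1/1 or 0.25/0.25, with a control immunoprecipitation by unspecific IgG at RNase I 0.1/0.025. Each condition was 1 library of 1 line, so no value below has a replicate error, and the intervals cover counting error over clusters only. For RNase T1 1/1 and RNase I 0.05/0.05 the RNA left the gel by an electric field, and for RNase T1 0.25/0.25 and the remaining RNase I conditions the gel was crushed, so the difference between the RNase T1 concentrations and that between gel methods cannot be told apart, and the antibody is known to bind the paralog IGF2BP2 to some extent.

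IGF2BP3 belongs to a family of oncofetal proteins that bind mRNA through paired RRM and KH domains, mostly in 3′UTRs, and are known to stabilise and localise their targets. In PAR-CLIP a photoactivatable uridine crosslinks to the bound protein and is then read as C, so T-to-C changes mark contact sites. RNase T1 cuts single-stranded RNA after G, whereas RNase I cuts with little base preference, so what an RNase T1 fragment can span depends on where G lies.

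The sequences of members show the feature that returns throughout the results. They are printed 5′ to 3′ on the transcribed strand (hg38, DNA letters), with every G in capitals. The first 4 are intergenic or intronic members that ranked among the highest by the smaller of their CPM values in both RNase T1 libraries, where CPM is cluster reads scaled to a library total of 1000000, and the next 3 lie in 3′UTRs, with the last 30 nt given where a cluster is longer.

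chr18:77918606-77918628 (+), intergenic: taattttactcactttatccaaG
chr5:95770832-95770860 (+), RHOBTB3 intron: taaaaaatcactacaaccatcaGttactG
chr6:77896246-77896268 (+), MEI4 intron: tattttatcaccatatccaccaG
chr17:42534136-42534160 (+), intergenic: atactcctcaaccactctcctaatG
chr11:13731014-13731048 (+), FAR1 3′UTR: tatttcctacacaaacttcttatttaacaG
chr17:57684415-57684443 (+), MSI2 3′UTR: tattttttttatatatatacatatatatG
chr18:35336538-35336566 (-), ZNF24 3′UTR: caaaaGctactcatcctctctataatttG

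All 7 ended in G, and as printed 5 of them held no other G. Over all members, 288 of 304 (94.7%, 91.6 to 96.7%) ended in G, and 129 of 304 (42.4%, 37.0 to 48.1%) held no G before the last nucleotide. Of the shared clusters, 94.4% ended in G, a difference of 0.383 percentage points (Newcombe 95% interval -2.76 to 2.43), but only 5.51% held no G before the last nucleotide. That difference was 36.9 percentage points (31.5 to 42.6). The RNase T1 1/1-only clusters stood near the members here, at 45.6%. Length moved with this measure: the median member was 26 nt long, against 42 nt for shared clusters and 28 nt for RNase T1 1/1-only clusters, and a longer cluster has more positions for a G and more positions to overlap RNase I.

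Aligned at the last nucleotide, G nearly vanished from the stretch before it. Over the 20 nt before the last nucleotide, G made up 1.43% of positions in the 112 members in 3′UTRs and 3.22% in the 183 members outside mRNA exons, against 9.68% in 8098 shared 3′UTR clusters. Over the 20 nt after it the values were 16.4%, 16.7% and 18.2%, and 50 to 31 nt before it 18.3%, 18.5% and 17.2%. The stretches of 20 nt were chosen for the summary, and reads of 18 to 45 nt were kept upstream. The part of read length in the stretch poor in G was not tested.

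**Figure D1:**
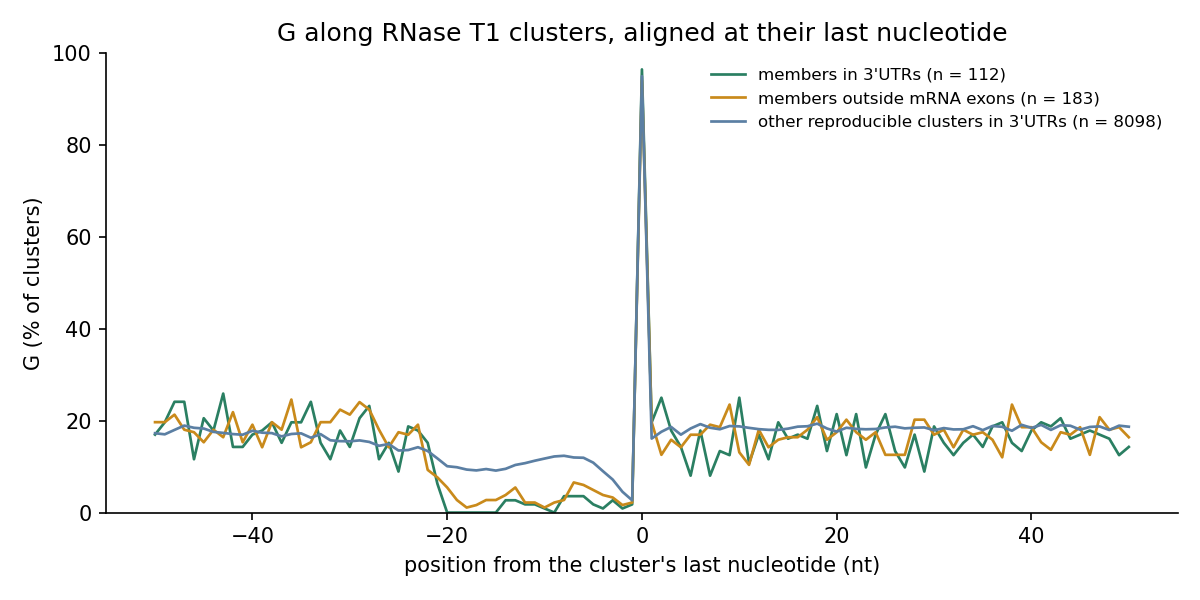
Percentage of clusters with G at each position (y axis) against the distance in nt from the last nucleotide of the cluster (x axis) for members in 3′UTRs, members outside mRNA exons and shared clusters in 3′UTRs of at most 90 nt. At the last nucleotide G stands at 96.4% and 94.0% in the member sets and 94.9% in the shared set, and over the 20 nt before it G reaches at most 3.57%, 6.56% and 12.4% of clusters.

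Members held fewer reads than shared clusters, and their ends coincided more often between the RNase T1 libraries. Reads per member in RNase T1 1/1 ran from 5 to 141 with a median of 18, and the partner clusters in RNase T1 0.25/0.25 held 3 to 40 reads with a median of 6. Shared clusters had medians of 29 and 9 reads and reached 2282 reads in RNase T1 1/1. The 3′ end was at the same nucleotide in both libraries for 227 of 304 members (74.7%), against 34.9% of shared clusters, a difference of 39.8 percentage points (34.6 to 44.4), and both ends coincided for 29.3% against 7.73%. Median length was 26 nt for members and 42 nt for shared clusters. The part of length and of read number in these shares was not tested. All members shared at least 9 nt with their partner, and 6 of 304 had a partner that itself touched an RNase I cluster. Across the 304 members, the log2 reads of the 2 libraries correlated with Pearson's r = 0.54 and the reads with Spearman's rho = 0.51. The 112 in 3′UTRs gave 0.33 and 0.32, and the 183 outside mRNA exons 0.56 and 0.57. These points share 2 libraries and were selected for presence in both.

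**Figure D2:**
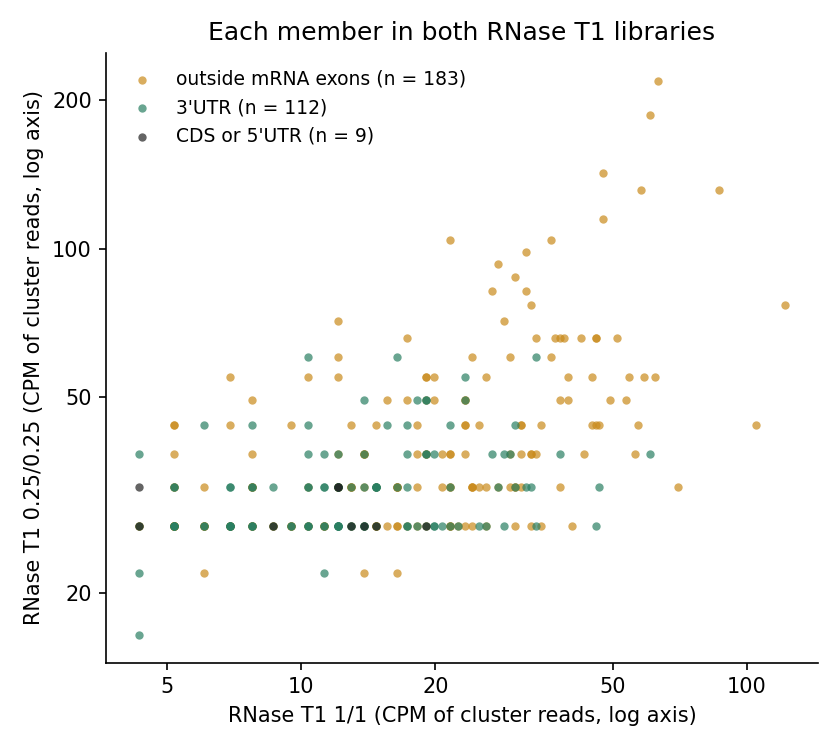
CPM of each of the 304 members in RNase T1 0.25/0.25 (y axis, log) against RNase T1 1/1 (x axis, log), coloured by where the member lies. Points form rows because 1 read is worth 5.48 CPM in the smaller library, and the members above 100 CPM on either axis lie outside mRNA exons.

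Members lay in 3′UTRs less often than shared clusters did. Of the members, 112 of 304 (36.8%, 31.6 to 42.4%) lay in an annotated 3′UTR, against 9083 of 11547 shared clusters (78.7%), a difference of -41.8 percentage points (-47.1 to -36.2). Coding exons held 8 members (2.63% against 6.80%) and 5′UTRs 1. Intergenic stretches held 117 (38.5% against 6.99%), a difference of 31.5 points (26.2 to 37.1). Introns held 38 (12.5% against 3.00%) and exons of non-coding genes 28 (9.21% against 4.36%). RNase T1 1/1-only clusters lay between, with 59.2% in 3′UTRs and 15.6% intergenic. The share of members in pseudogenes of any type was 7.24%, against 2.36% of shared clusters.

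**Figure D3:**
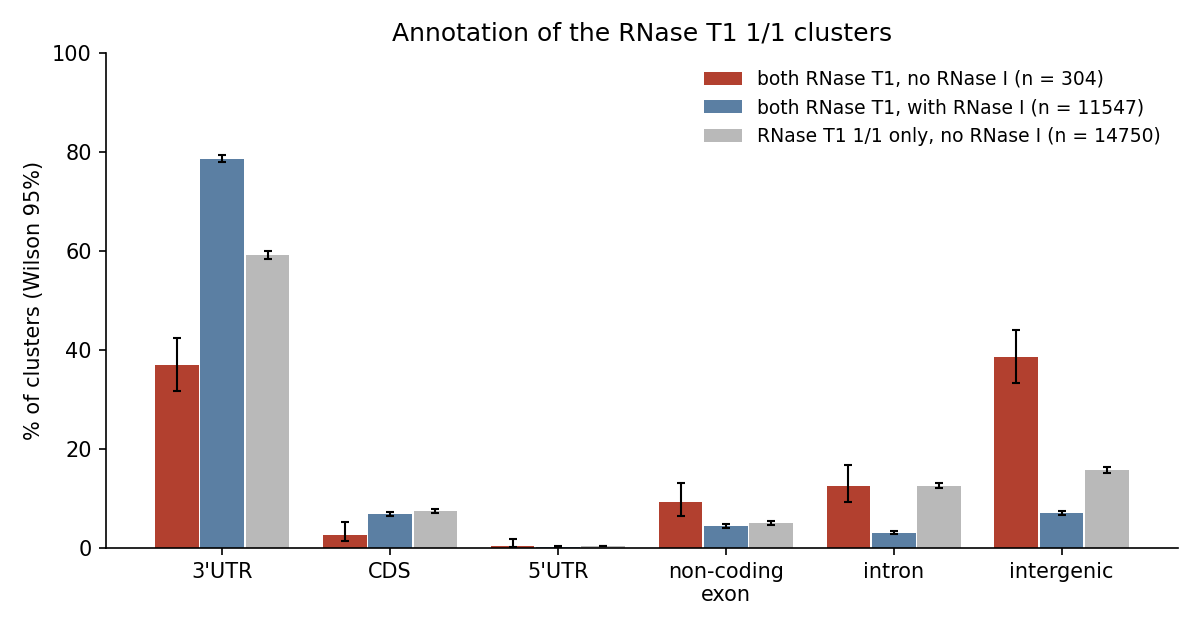
Percentage of clusters (y axis, bars with Wilson 95% intervals) in each annotation class for the 304 members, the 11547 shared clusters and the 14750 RNase T1 1/1-only clusters. The 3′UTR bar of the members stands at 36.8%, under 78.7% and 59.2%, and their intergenic bar at 38.5%, over 6.99% and 15.6%.

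The background to these counts is how often an RNase T1 1/1 cluster met each condition of the rule on its own. With no RNase I overlap there were 15054 clusters, or 25.1% of all, and with an RNase T1 0.25/0.25 overlap 11851, or 19.8%. Of the clusters without RNase I, 2.02% were found again with RNase T1 0.25/0.25, and of those with RNase I, 25.8%. These shares follow from the rule and are given as a description. The depth of the libraries differed: RNase I 0.05/0.05 held 2362467 reads in 90999 clusters, RNase I 0.1/0.025 803490 in 43385 and RNase I 0.05/0.025 670712 in 36795, beside 1157194 reads in RNase T1 1/1 and 182448 in RNase T1 0.25/0.25. Of the 11851 reproducible clusters, RNase I 0.05/0.05 lacked an overlap for 436, RNase I 0.1/0.025 for 1317 and RNase I 0.05/0.025 for 1828. The part of depth in these counts was not tested. The files list called clusters only, so reads below the caller's limits in RNase I were not seen. None of the 304 members overlapped a cluster of the IgG control, which allows a share of up to 0.987%, and that library held 25 clusters. It was made with RNase I, and no IgG library was made with RNase T1. Of the shared clusters 0.182% overlapped it, and of the RNase T1 1/1-only clusters 0%, so the absence of overlap says little about the members.

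The 15 members with the highest CPM in both libraries all lay outside mRNA exons. The strongest by the smaller CPM, chr18:77918606-77918628, held 100 reads in RNase T1 1/1 and 24 in RNase T1 0.25/0.25, with its nearest RNase I cluster 949012 nt away. The member with most reads in RNase T1 1/1, chr1:68391829-68391863 (+), held 141 and 14 reads. Its central 25 nt occurred at 177 other places in the genome. The second by reads, chrX:92558467-92558485 (-), held 121 and 8 reads and had only 0.0909 T-to-C events per read in RNase T1 1/1 and 0.500 in RNase T1 0.25/0.25. The fourth by reads lay in an intron of SLC45A1, which encodes a sugar transporter, at chr1:8340717-8340739 (+), with 81 and 6 reads, 11 nt from an RNase I cluster. The 25 nt centred on it matched a DDX21 transcript with 1 mismatch, at a flanking base outside the cluster. The fifth, chr2:151186691-151186724 (+), held 73 and 40 reads, the most of any member in RNase T1 0.25/0.25.

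Many of these strong members matched the transcript of a gene elsewhere. The 25 nt centred on the midpoint of each cluster, called its central 25 nt, were compared with all GENCODE transcripts of other genes and with RNase I clusters elsewhere. In a cluster shorter than 25 nt they include flanking genome bases. Outside mRNA exons the lower quartile of length was 22 nt for members and 29 nt for shared clusters. The part of cluster length in the matches below was not tested. Of the 183 members outside mRNA exons, 75 (41.0%) matched a transcript of another gene exactly and 52 (28.4%) matched one best with 1 or 2 mismatches, 127 in all. For 120 of the 127 the best match was a protein-coding transcript. HSPD1, a mitochondrial chaperonin, and MDM2, a ubiquitin ligase, were each matched by 3 members, and EREG, a growth factor of the EGF family, PTP4A2, a phosphatase, HNRNPA3, an RNA-binding protein, PSMB2, a proteasome subunit, EIF4A2, an RNA helicase of translation initiation, and ACTB, cytoplasmic actin, by 2 each. YWHAZ, IL6ST, HTR7, HSP90B1 and TPM3 were also matched by 2 each. The 127 fell on 112 genes, at most 3 members a gene. Some members were copies of one another. The 3 members matching HSPD1 matched nearly the same stretch of it, and 20 of all 304 members shared their whole sequence with another member. The intervals and tests count such copies as separate clusters. Among shared clusters outside mRNA exons, 66.5% matched exactly and 8.70% at 1 or 2 mismatches. Members thus matched exactly less often, by -25.5 percentage points (-32.7 to -17.9), and with 1 or 2 mismatches more often, by 19.7 (13.5 to 26.8), while the sum of both differed by -5.78 (-13.1 to 0.796). Inside mRNA exons 10.7% of members and 8.69% of shared clusters had a copy with up to 2 mismatches, a difference of 2.05 points (-2.35 to 8.84).

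The following pairs set the 25 nt centred on a member against the transcript matched best, for cases that differ, with the differing bases in capitals.

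member chr5:95770834-95770858 (+), RHOBTB3 intron: AaaaatcactaCaaccatcagttac
HSPD1 transcript: GaaaatcactaTaaccatcagttac
member chr17:42534136-42534160 (+), intergenic: Atactcctcaaccactctcctaatg
PTP4A2 transcript: Gtactcctcaaccactctcctaatg
member chr7:88640419-88640443 (+), intron of a long non-coding RNA: atAaatattatccctaatacctgcc
EEF1A1 transcript: atGaatattatccctaatacctgcc
member chr5:32222151-32222175 (+), non-coding exon: gtTtataactacaatcacctaatgG
RPL27 transcript: gtGtataactacaatcacctaatgC

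Mismatched bases were counted over the members outside mRNA exons with a best transcript match at 1 to 3 mismatches. G in the transcript alone was more frequent than G in the member alone, though most mismatches were of other kinds than the first. Some of these bases can lie in the flank of a short cluster. Of 125 such mismatches, 52 (41.6%) had G in the transcript and another base in the member, and 17 (13.6%) the opposite. For shared clusters outside mRNA exons the first kind was 91 of 325 (28%), a difference of 13.6 points (3.88 to 23.5), and the second 10.5%, a difference of 3.14 points (-3.09 to 10.8). This count was added after the pairs were seen. The member matching HSPD1 held 67 and 24 reads, the one matching PTP4A2 55 and 26, and the one matching EEF1A1 39 and 7. EEF1A1 encodes the translation elongation factor that delivers tRNA to the ribosome, and the long non-coding gene around its copy, ENSG00000233420, was the only gene with 2 members. For other strong members the copy was exact, so their 25 nt are the same in both places: chrX:111619534-111619565 (-) and EIF4B, a translation initiation factor, with 63 and 10 reads, chrX:68489838-68489868 (-) and ATXN2L, with 59 and 12, chr1:46370623-46370658 (-) and SCD, a fatty acid desaturase, with 62 and 9, and chr15:71164558-71164595 (-) and HMGB1, a chromatin protein, with 70 and 34. Further exact matches among the strongest were to USP12, a deubiquitinase, with 57 and 9 reads, ETF1, the translation termination factor, with 53 and 12, and RAC1, a small GTPase, with 53 and 12. Of the 15 strongest, those on chromosomes 18 and 4 matched a transcript, of NARS1 and EEF2, only at 3 mismatches over their central 25 nt. For the chromosome 18 member, 1 of the 3 lay in the flank, outside the cluster. The MEI4 intron member and that at chr2:81531863-81531889 (+) matched none within 3 mismatches.

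The sequence of a member was often present with RNase I at another place. Of the 183 members outside mRNA exons, 95 (51.9%, 44.7 to 59.0%) had a copy of their central 25 nt with up to 2 mismatches in an RNase I cluster elsewhere, 51 of them exact. Shared clusters outside mRNA exons reached 74.9%, a difference of -23.0 points (-30.5 to -15.5). RNase T1 1/1-only clusters outside mRNA exons reached 12.3%. In mRNA exons the same measure was 3.31% of members and 14.2% of shared clusters. A read with exact copies cannot be assigned to one of them from its sequence, and how the aligner placed such reads is not given in the sources used here. The study's alignment allowed up to 3 mismatches, so a read could also align to copies that differ by up to that number. The part of read placement in the absence of these members from RNase I was not tested.

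**Figure D4:**
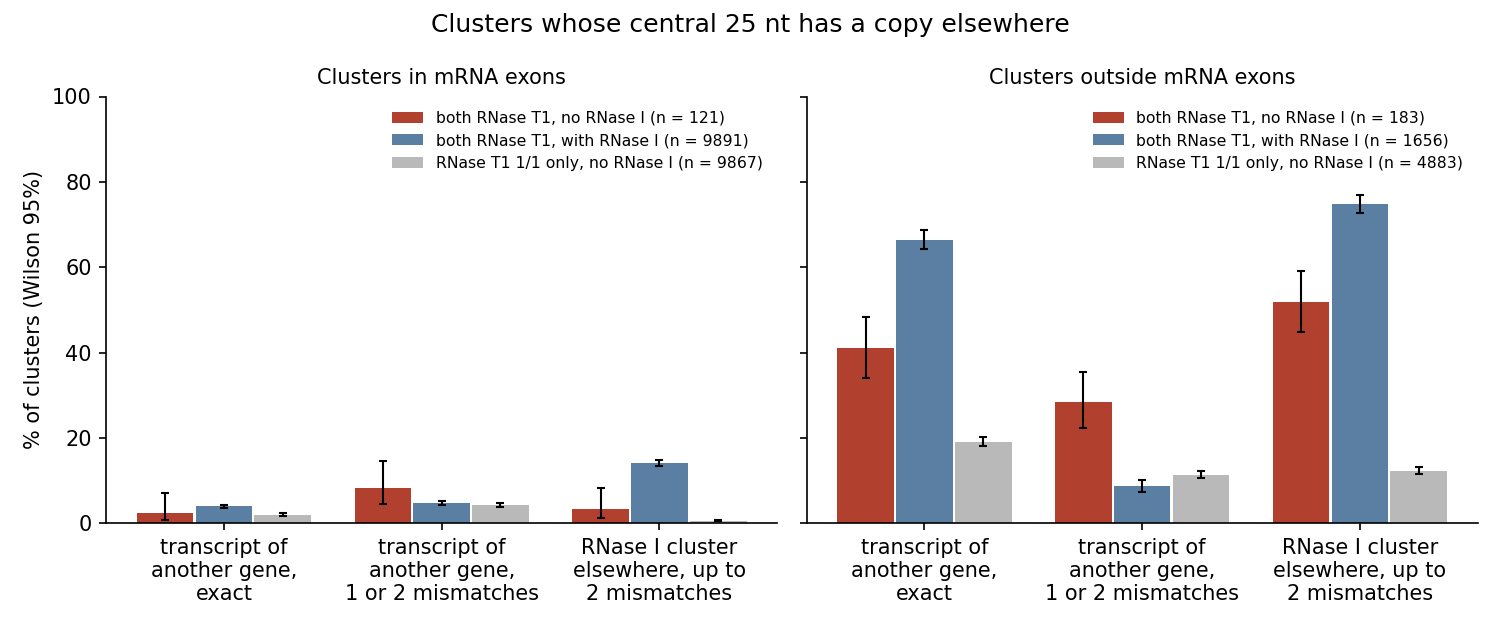
Percentage of clusters (y axis, bars with Wilson 95% intervals) whose central 25 nt have an exact copy in a transcript of another gene, a best copy there with 1 or 2 mismatches, or a copy in an RNase I cluster elsewhere, in mRNA exons (left) and outside them (right). Outside mRNA exons the members stand at 41.0%, 28.4% and 51.9% and the shared clusters at 66.5%, 8.70% and 74.9%.

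The 112 members in 3′UTRs lay on 112 genes, and nearly all of these genes were seen with RNase I. RNase I 0.05/0.05 had clusters on 109 of the 112 genes, with a median of 13.5 clusters and 177 reads per gene. Of the 112 members, 75 (67.0%) had RNase I clusters on both sides within the span of the canonical 3′UTR. The nearest RNase I cluster was a median of 42.5 nt away, 59 members (52.7%) had one within 50 nt and 95 (84.8%) within 200 nt. It lay downstream of 55 and upstream of the others. Members outside mRNA exons were farther, with a median of 566 nt, 37 of 183 (20.2%) within 50 nt and 75 (41.0%) more than 10000 nt away. The rule excludes a distance of 0, so these distances are a description.

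**Figure D5:**
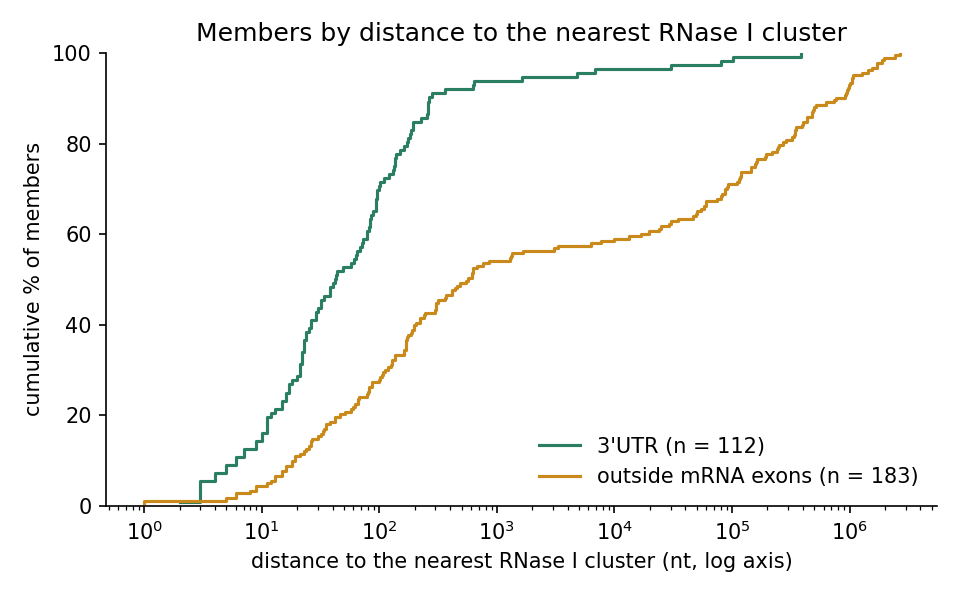
Cumulative percentage of members (y axis) within a given distance in nt of the nearest RNase I cluster on the same strand (x axis, log) for the 112 members in 3′UTRs and the 183 outside mRNA exons. The 3′UTR curve passes 52.7% at 50 nt and 84.8% at 200 nt, and the other curve 20.2% and 39.9%.

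At the edge of the rule, 2 members lay next to an RNase I cluster without a base between. One was the member on chromosome X that matches EIF4B, with 63 and 10 reads, and the other lay in an intron of SNRPD3, a spliceosomal core protein, with 16 and 4 reads. Just outside the rule, 3 reproducible clusters shared 1 nt with RNase I 0.05/0.05 and none with the other RNase I libraries: one in an intron of LINC01123 with 17 and 5 reads, one on the mitochondrial genome with 13 and 5, and one in the 3′UTR of TMED4 with 7 and 5.

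Several 3′UTR members with many reads, singled out after their values were seen, lay on genes with many RNase I clusters. TRAM1, which aids protein translocation into the endoplasmic reticulum, had the 3′UTR member with most RNase T1 1/1 reads, with 70 and 7 reads, 16 nt from an RNase I cluster, on a gene with 22 clusters and 1262 reads in RNase I 0.05/0.05. MOB1A, a Hippo pathway adaptor, had 53 and 5 reads, 11 nt from RNase I. FAR1, a fatty acyl-CoA reductase of ether lipid synthesis, had 44 and 7 reads in its member, 25.1% of the RNase T1 1/1 cluster reads on the gene, and the nearest RNase I cluster began 17 nt downstream. MSI2, an RNA-binding regulator of stem cells, had 39 and 11 reads, or 5.58% of the gene's reads, 3 nt from an RNase I cluster. PTBP3, a splicing regulator, had 54 and 6 reads, or 5.91%, on a gene with 50 clusters and 1331 reads in RNase I 0.05/0.05. PELO, a ribosome rescue factor, stood apart with 38 and 6 reads and 40.4% of the gene's reads. ZCCHC8, a subunit of a nuclear exosome adaptor, had 35 and 6 reads, 71.4% of the gene's reads, and its gene had 1 cluster of 8 reads in RNase I 0.05/0.05. No RNase I library had a cluster on SYT15B (23 and 5 reads) or on FOXD1, a forkhead transcription factor (13 and 5). Their nearest RNase I clusters lay 384760 and 102453 nt away, and the central 25 nt of the SYT15B member matched its paralog SYT15 with 1 mismatch. By reads in RNase T1 0.25/0.25, the highest 3′UTR members were those of MSI2, HMGB1 (19 and 11 reads, 12 nt from RNase I) and RPL27A, and next EXOSC3, an exosome subunit (27 and 10 reads, 7 nt from RNase I). Over the 112, a member held a median of 10.6% of the RNase T1 1/1 cluster reads on its gene, and in 30 of 112 it was the cluster with most reads.

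The 8 members in coding exons held 5 to 22 reads in RNase T1 1/1 and 5 or 6 in RNase T1 0.25/0.25. Their G content varied. The member in XRCC5, a DNA end-binding protein, had 14 and 6 reads and 1 G in 21 nt, and that in NUP98, a nuclear pore protein, 17 and 5 reads and 1 G in 27 nt. The member in DDX50, an RNA helicase, had 22 and 5 reads and 9 G in 60 nt, with an exact copy of its central 25 nt in the pseudogene DDX50P2. The first 2 are printed with every G in capitals, to set them beside the 3′UTR members above.

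chr2:216148188-216148208 (+), XRCC5 coding exon: attcctctctctaaaataaaG
chr11:3723364-3723390 (-), NUP98 coding exon: tttcacatttttatactaaccctattG

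The XRCC5 and NUP98 members lay 13 and 9 nt from an RNase I cluster. Others were on AHCTF1 (5 and 5 reads), ALMS1 (5 and 6), GTF2H1 (16 and 5) and CCP110 (15 and 5). The single 5′UTR member, on HNRNPC, an abundant nuclear RNA-binding protein, had 10 and 5 reads, on a gene with 1078 cluster reads in RNase I 0.05/0.05.

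Within the canonical 3′UTR the members leaned away from the start. Of 103 members that could be placed there, 18.4% lay in the first 20% of its length and 21.4% in the last 20%, against 28.7% and 13.9% of 8492 shared clusters. The differences were -10.3 points (-16.7 to -1.65) and 7.46 points (0.613 to 16.4), and the intervals for the stretches between included 0. The canonical 3′UTRs of the genes with members had a median length of 3332.5 nt, against 2603 nt over the shared clusters.

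In windows centred on the cluster, members were poorer in G and C than shared clusters. The median length was 26 nt for members and 42 nt for shared clusters, and some shared clusters were longer than the window (highest 611 nt). The part of the window taken up by the cluster thus differed between the sets. In these windows of 61 nt around the midpoint, members held a mean of 8.22 G against 9.57 (difference -1.35, 95% interval -1.68 to -1.01) and 11.9 C against 14.1 (-2.19, -2.70 to -1.68), with more A (18.5 against 16.5) and more U (22.4 against 20.8). In 3′UTRs alone G was 7.74 against 9.50 (-1.76, -2.23 to -1.28), and outside mRNA exons 8.48 against 9.75 (-1.28, -1.76 to -0.790). Against RNase T1 1/1-only clusters the difference in G was -0.165 (-0.498 to 0.169) over all and -0.800 (-1.28 to -0.323) in 3′UTRs.

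All possible 4-nt sequences were tested, and 26 (10.2%) were present in more windows of members than of shared clusters and 39 (15.2%) in fewer, where each sequence got a Fisher's exact test (two-sided) and was called at a Benjamini-Hochberg adjusted p of 0.05. All 16 built of A and U alone were among the 26. UUUA was in 65.8% of member windows and 44.7% of shared windows (exact test, adjusted p = 8.6e-11), UUAU in 53.6% and 36.0% (9.7e-08), and AAAA in 42.8% and 28.8% (2.3e-05). Of the 39, 34 held a G and 38 a C. CAGC was in 9.87% and 21.2% (2.3e-05) and GCAC in 4.61% and 13.3% (3.6e-05). In 3′UTRs alone the test called 32, and the 65 called over all clusters kept their direction there, 28 of them with an adjusted p below 0.05. Among clusters of at most 35 nt the test called 19, with 7 higher and 12 lower, and with 1 cluster per gene it called 13, with 9 higher and 4 lower. Windows are not replicates of a condition, and these p-values compare lists of clusters from single libraries.

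T-to-C events per read were spread more widely over members than over shared clusters. This is a ratio to reads, and the median was 18 reads in members, 29 in shared clusters and 7 in RNase T1 1/1-only clusters. The part of read number in the spread was not tested. In RNase T1 1/1, 58.9% of members and 54.6% of shared clusters had more than 0.5 events per read, a difference of 4.30 points (-1.38 to 9.77). More than 0.75 events per read was seen in 21.4% and 12.2% (9.21, 4.92 to 14.2), and more than 0.25 in 93.4% and 96.1% (-2.63, -6.01 to -0.320). RNase T1 1/1-only clusters stood near the members, at 22% above 0.75 events (difference -0.639, -4.93 to 4.36) and 94.0% above 0.25. In the partner clusters of RNase T1 0.25/0.25 the shares above 0.5 were 64.8% and 59.2% (5.64, 0.0497 to 10.9). Where the member lay turned the direction: the difference was -4.00 points (-13.2 to 5.16) in 3′UTRs and 8.80 (1.24 to 15.8) outside mRNA exons.

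Counts of members on genes of the families looked at were small, and no test was run on them. Among cytosolic ribosomal protein genes, RPL27A had a member (12 and 11 reads) against 125 shared clusters. Zinc finger genes had 4, on ZNF24 (22 and 9 reads), ZNF678 (21 and 5), ZNF805 (17 and 6) and ZNF639 (11 and 5), all in 3′UTRs, against 142. RAB GTPase genes, which direct vesicle traffic, had 2, on RAB11A (39 and 5 reads) and RAB8B (16 and 5), and solute carriers had 2, in introns of SLC45A1 and SLC6A11 (38 and 5 reads). The central 25 nt of these 2 intron members matched transcripts of DDX21 and DCTN5, each with 1 mismatch. For DDX21 the mismatch was at a flanking base outside the cluster. By their symbols, EIF2AK2 (6 and 5 reads), which is a kinase that phosphorylates a translation initiation factor, and TMEM59 (16 and 5) were the others. Mitochondrial ribosomal protein, respiratory chain and histone genes had none, against 48, 50 and 32 shared clusters. In these lists members were 0 to 2.74% of the reproducible clusters, highest for zinc finger genes. They were 2.57% of all reproducible clusters, but that share counts intergenic clusters, which lie on no gene. Intergenic clusters were 38.5% of members and 6.99% of shared clusters. In 3′UTRs alone there were 112 members beside 9083 shared clusters.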

How the data were processed

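The files, 1 per library, list clusters with whole-number read counts and T-to-C conversion event counts, which the authors deposited. Per the labels and the study's methods, reads of 18 to 45 nt were demultiplexed (bcl2fastq 2.20.0.422), trimmed (Trimmomatic 0.30), aligned to GRCh38 (Bowtie 0.12.7), collapsed by molecular identifier (UMI-tools 1.1.1) and clustered per library by PARalyzer. The alignment allowed up to 3 mismatches, and settings for multi-mapping reads were not given in the sources used here. No value filter was added. The members and lists were chosen with earlier results of these data known. CPM is cluster reads scaled to a library total of 1000000. Overlaps used bedtools 2.31.1, annotation GENCODE release 44 (3′UTR, CDS, 5′UTR, non-coding exon, intron, in that order), and all cluster sequences matched hg38. Copies of the central 25 nt were sought with bwa 0.7.19 and pysam 0.24.0, leaving out the own locus. Shares have Wilson and differences Newcombe 95% intervals; 4-nt sequences were tested by Fisher's exact test (scipy 1.17.1), a step tested on simulated data. Named members are the 15 highest by the smaller CPM, the 5 with most reads, of the 5 genes with most members ENSG00000233420 alone (2 members, the others tied at 1), those at the edge of the rule and those of the gene lists. The other members named, in 3′UTRs, a 5′UTR, coding exons and among the copies, were chosen after their values were seen. Libraries held 182448 to 2362467 cluster reads with IGF2BP3 and 324 with IgG. Alternatives changed the overlap, the RNase I libraries, reads, strand, length, annotation order and windows. Some members, and the list of known IGF2BP targets, are not reported here.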

Additional observations from a re-analysis of the deposited data

How the results depend on the processing

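The lower share of members in 3′UTRs (-52.8 to -9.53 percentage points over 12 alternatives) and their fewer G (-1.89 to -0.966 per window over 13 alternatives, and -6.53 percentage points within the cluster itself) kept direction and an interval without 0. The number of members moved to 1317 with absence asked of RNase I 0.1/0.025 alone, 1828 with RNase I 0.05/0.025 alone, 166 on genes with an RNase I cluster and 164 without a transcript copy. The number of 4-nt sequences called moved to 25 with no RNase I cluster within 50 nt, 140 and 147 under those 2 single RNase I libraries, 20 on genes with an RNase I cluster, 19 up to 35 nt, 35 without a transcript copy, 215 (214 of them lower) in the sequence of the cluster itself, where length differs, 13 with 1 cluster per gene, 32 in 3′UTRs and 18 outside mRNA exons. More were higher than lower, unlike the 26 and 39 of the main comparison, with no RNase I cluster within 50 nt (15 and 10), on genes with an RNase I cluster (12 and 8), with 1 cluster per gene (9 and 4) and outside mRNA exons (11 and 7). The difference in a last G, 0.383 points, became -0.695 with no RNase I within 50 nt, -2.20 up to 35 nt and -0.887 without a transcript copy, all with 0 in the interval, and 1.55 under RNase I 0.05/0.025 alone, without it. The conversion difference of 4.30 points became -0.447 under RNase I 0.1/0.025 alone, -0.860 on genes with an RNase I cluster, -2.63 above 0.25 events and -4.00 in 3′UTRs, and its interval left out 0 at -2.63 and at 6.89 (no RNase I within 50 nt), 6.84 (up to 35 nt), 9.21 (above 0.75 events), 5.64 (partner clusters) and 8.80 (outside mRNA exons). The causes were not tested. The settings for length, transcript copies and clusters outside mRNA exons, conversion in 3′UTRs alone and G within the cluster were chosen after seeing the data. The share of soft-masked repeat bases was not run, since the genome used is in capitals only. No paired analysis was possible because each condition was 1 library. RNase T1 0.25/0.25, where 1 read is worth 5.48 CPM, limits which clusters could be found at both concentrations.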

Other observations

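Some members outside mRNA exons had no copy of their central 25 nt within the mismatch limits used. These limits were below the 3 mismatches that the study's alignment allowed. Of the 183, 56 matched no transcript of another gene with up to 2 mismatches, and 48 of these also had no other genome copy with up to 1 mismatch. Of the 48, 31 lay more than 10000 nt from any RNase I cluster and 12 within 200 nt. The strongest of them by the smaller CPM were the member at chr18:77918606-77918628 (+), with 100 and 24 reads in RNase T1 1/1 and RNase T1 0.25/0.25, and one in an intron of the meiosis gene MEI4, with 72 and 10 reads. The 25 nt centred on the chromosome 18 member matched a NARS1 transcript at 3 mismatches, beyond the limit of 2. Of these 3 bases, 1 lay in the flank outside the cluster, so the cluster itself differed at 2. Another, chr2:81531863-81531889 (+), held 55 and 21 reads with 1.98 and 2.00 conversion events per read.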
